A study of Arabidopsis thaliana with 12 samples.

Results

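Expression of 3 GDSL lipase genes, AT1G20120, EXL5 (AT1G75920) and AT5G45950, was followed in flowers and stems of Arabidopsis thaliana. Each gene has 1 probe set in the platform's probe annotation, and they are 3 of 13286 genes that have a probe set of their own there. They were selected on measured values of these arrays: AT1G20120 and EXL5 on a high signal in young buds, and AT5G45950 on a low signal in older arf6 arf8 flowers. Those stage and genotype values are therefore a description without a test.

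GDSL lipases are a large plant family of esterases and lipases, named after the motif around their active-site serine, and many are secreted. Several EXL genes encode extracellular lipases of the pollen coat, which the tapetum, the nurse tissue lining the anther, makes and releases as it breaks down. EXL4, a family relative, is known for its part in the hydration of pollen on the stigma. The functions of AT1G20120 and AT5G45950 are not described in the annotation used here.

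The study set arf6 arf8 double mutants beside single-copy plants and wild-type plants. ARF6 and ARF8 are auxin response factors, DNA-binding proteins that turn auxin signals into changes of transcription, and flowers lacking both are known to stop as closed, infertile buds. Wild-type plants were labelled Columbia, and all plants were grown for 6 weeks in long days. The labels used here name no background for the mutants and no treatment. Sample titles give the intermediate genotype as arf6/arf6 ARF8/arf8 and the design text as ARF6/arf6 arf8/arf8; either way 1 functional copy of this gene pair is left. From each of the 3 genotypes came 1 array of flowers at stages 1-10, 1 at stages 11-12, 1 at stages 13-14, and 1 of a stem piece of about 0.5 cm. With 1 array per genotype and tissue there was no replicate, so the order of single values has no error attached. In whole organs, fewer cells of a type and less RNA per cell cannot be told apart. ARF6 and ARF8 have 0 probe sets in the annotation, and their transcripts were not analysed here.

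Values are MAS5 signals, a linear brightness scaled to a common trimmed mean per array. Median signals of the 12 arrays lay between 191.8 and 235.3. Ratios were taken of (signal + 50), and differences are on the log2(signal + 50) scale. A ratio of low signals is thereby pulled towards 1. The single-copy arrays of stages 1-10 and 13-14 stood apart: 282 and 487 probe sets were at least 2-fold higher than in wild-type there and 654 and 525 lower, against 87 higher and 310 lower at stages 11-12.

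AT1G20120 was a gene of young buds in every genotype. In arf6 arf8 its signal was 2571 at stages 1-10, 156.7 at stages 11-12, 205.9 at stages 13-14 and 43.9 in stem. Single-copy plants gave 4320, 275.1, 250.1 and 82.1 in the same order of tissues. Wild-type gave 3745, 975.4, 255.3 and 180.5. Over the 3 genotypes the mean was 3545 ± 891 at stages 1-10, 469 ± 442 at stages 11-12, 237 ± 27.1 at stages 13-14 and 102 ± 70.5 in stem (SD, n = 3 genotypes). The youngest flowers held the highest value of each genotype, stages 13-14 lay above stem in all 3, and at stages 13-14 the 3 genotypes lay close together.

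The arrays of the 3 genotypes parted at stages 11-12. Signal at stages 1-10 was 12.7-fold that at stages 11-12 in arf6 arf8 and 13.4-fold in single-copy plants, against 3.70-fold in wild-type. Relative to stages 13-14 it was 10.2-fold, 14.6-fold and 12.4-fold in arf6 arf8, single-copy and wild-type flowers. At stages 11-12 wild-type was thus 4.96-fold above arf6 arf8 and 3.15-fold above single-copy flowers. At stages 13-14 the same ratios were 1.19 and 1.02. The residual signal at stages 11-12 was the one point at which wild-type stood clear of both other genotypes in flowers.

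EXL5, the pollen coat lipase, had the same shape. Its signal in arf6 arf8 was 2632, 75.9, 31.5 and 48.6 at stages 1-10, 11-12, 13-14 and in stem. In single-copy plants it was 5843, 227.9, 15.2 and 71.6. Wild-type had 4009, 843.5, 61.1 and 89.0. Means over the 3 genotypes were 4161 ± 1611, 382 ± 406, 35.9 ± 23.3 and 69.7 ± 20.3 (SD, n = 3 genotypes). All 3 genotypes were high at stages 1-10 and all were below 100 at stages 13-14 and in stem.

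Again stages 11-12 set wild-type apart. EXL5 at stages 1-10 was 21.3-fold its level at stages 11-12 in arf6 arf8 and 21.2-fold in single-copy plants, against 4.54-fold in wild-type. The wild-type signal at stages 11-12 was 7.10-fold above arf6 arf8 and 3.22-fold above single-copy flowers. At stages 1-10 single-copy buds had the highest signal, with wild-type at 0.689 times their level, and wild-type was 1.51-fold above arf6 arf8. Over the 12 arrays AT1G20120 and EXL5 had a Pearson correlation of 0.951, a description of arrays that share a steep stage course.

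AT5G45950 differed in tissue and in genotype. In arf6 arf8 its signal was 1227 at stages 1-10, 703.9 at stages 11-12, 423.6 at stages 13-14 and 1354 in stem. Single-copy plants gave 3634, 5861, 10100 and 2634. Wild-type gave 2501, 5578, 11195 and 3308. The arf6 arf8 value was the lowest of the 3 genotypes in all 4 tissues, and its lowest point was the stage at which the other two genotypes peaked.

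The gap between genotypes grew with flower age. Wild-type was 2.0-fold, 7.47-fold and 23.7-fold above arf6 arf8 at stages 1-10, 11-12 and 13-14, and 2.39-fold above it in stem. Single-copy plants were 2.88-fold, 7.84-fold and 21.4-fold above arf6 arf8 in the same flowers and 1.91-fold in stem. Stages 13-14 were 2.70-fold below stages 1-10 in arf6 arf8, but 2.76-fold above them in single-copy plants and 4.41-fold above them in wild-type. Over the 3 genotypes the mean signal was 2454 ± 1204 at stages 1-10, 4048 ± 2899 at stages 11-12, 7239 ± 5928 at stages 13-14 and 2432 ± 992 in stem (SD, n = 3 genotypes), so the tissues overlapped. AT5G45950 had correlations of 0.0949 with AT1G20120 and 0.0194 with EXL5 over the 12 arrays.

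**Figure D1:**
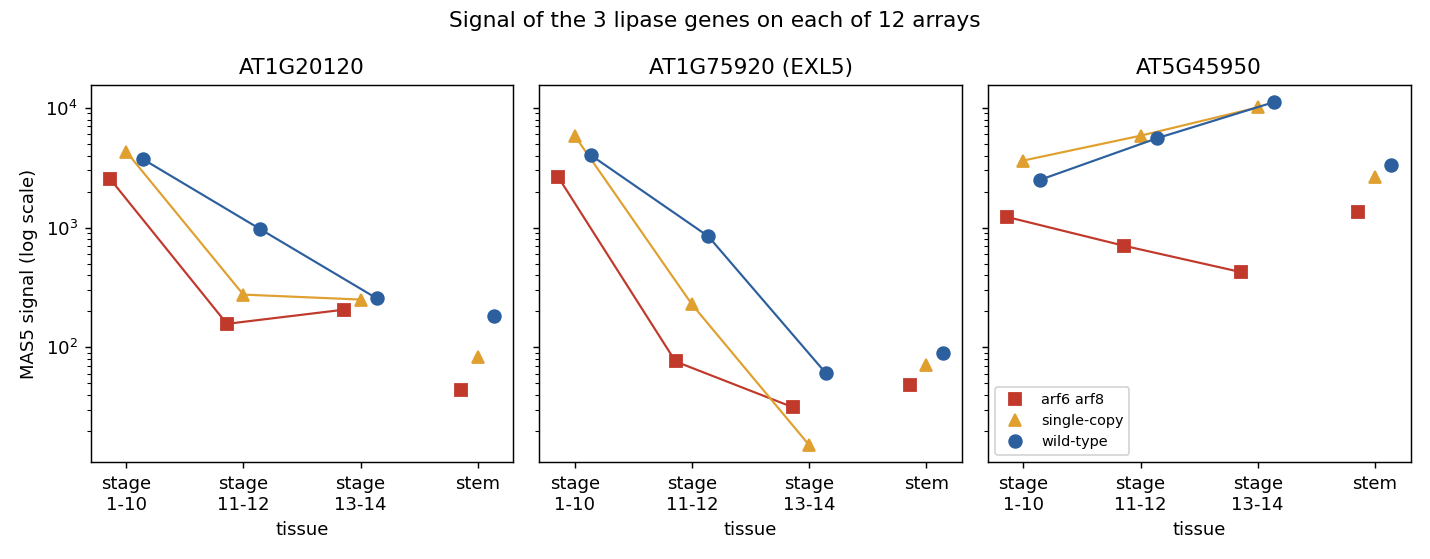
Signals of AT1G20120, EXL5 and AT5G45950 on a log scale in each of 12 arrays, by tissue, with 1 point per array for arf6 arf8, single-copy and wild-type plants. The first pair is high at stages 1-10 in all genotypes and splits at stages 11-12, whereas AT5G45950 in arf6 arf8 drops to 423.6 at stages 13-14, against 10100 in single-copy and 11195 in wild-type flowers.

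Genotypes were then tested over pairs of tissues with limma, with stages 11-12 and 13-14 as older flowers and stages 1-10 with stem as younger tissue. A probe set passed at an adjusted p below 0.05 over all 17642 probe sets that reached a signal of 100 in at least 1 array. In older flowers the contrast of arf6 arf8 with wild-type had been used to choose genes, and its values are given without a test: -3.73 for AT5G45950, -1.64 for EXL5 and -1.28 for AT1G20120 (log2). Against single-copy plants the differences were -3.70, -0.41 and -0.44. The small ones turned on 1 array: without arf6 arf8 stages 11-12 they were 0.55 for EXL5 and 0.18 for AT1G20120, and without arf6 arf8 stages 13-14 they were -1.37 and -1.06. The AT5G45950 difference from wild-type lay between -4.51 and -2.95 when single arrays were left out. Those of EXL5 and AT1G20120 depended on stages 11-12: EXL5 was at -0.68 without the arf6 arf8 array of that stage, and AT1G20120 at -0.36 without the wild-type array.

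In older flowers no probe set passed between single-copy plants and wild-type. AT1G20120 differed by -0.84 and EXL5 by -1.23. Both are given without a test, since the stage course that chose these genes used the same wild-type arrays. AT5G45950 differed by -0.04, given without a test, since the contrast that chose it used the same wild-type arrays. The AT1G20120 value was 0.08 without the wild-type array of stages 11-12, and the EXL5 value ranged from -2.05 to -0.40 when single arrays were left out. In this contrast 0% of all probe sets passed as higher and 0% as lower by limma, and 655 had an unadjusted p below 0.05.

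In younger tissue the 3 genes were lower in arf6 arf8 than in wild-type. These values are given without a test, since arrays that helped to choose the genes enter this fit. AT5G45950 was lower in both buds and stem, with a log2 difference of -1.13. AT1G20120 differed by -0.91 and EXL5 by -0.55. In stem EXL5 was below 100 in both genotypes, and AT1G20120 was at 43.9 in arf6 arf8 and 180.5 in wild-type. With flower arrays alone, and so without stem, the differences were -0.53 for AT1G20120 and -0.60 for EXL5. Only 0.0397% of all probe sets passed as higher and 0.0283% as lower, so this comparison made few calls of any kind.

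Over all genotypes together, AT5G45950 in stem minus stages 1-10 gave 0.03. It is given without a test, since the genotype gap in older flowers, on which the gene was selected, enters the spread of this fit. The older flowers hold the arf6 arf8 values it was selected on, so their differences from stages 1-10 are given without a test: 0.72 at stages 13-14 and 0.35 at stages 11-12. Opposite courses were averaged in these, since arf6 arf8 was lower and the other genotypes were higher at the later stages. For the bud genes, whose stage course was used to choose them, stages 13-14 minus 1-10 came to -3.62 for AT1G20120 and -5.58 for EXL5.

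Among tapetum markers, 1 of 5 measured genes was, like the bud lipases, far lower in arf6 arf8 than in wild-type at stages 11-12. Of 21 genes listed for tapetum and pollen wall, 5 had a probe set, and their summed signal was 17533 in arf6 arf8, 26348 in single-copy and 22723 in wild-type buds of stages 1-10. At stages 11-12 the sums were 1175 in arf6 arf8, 7010 in single-copy and 13175 in wild-type flowers. Nearly all of the later sums was AT1G66850, a lipid transfer protein family gene, with 1008 in arf6 arf8, 6929 in single-copy and 12999 in wild-type flowers. AMS, a tapetum transcription factor gene, had 54.7, 46.2 and 118.2. The others were low or highest in arf6 arf8: A9, a tapetum gene of the same broad family as AT1G66850, had 53.3, 17.0 and 46.4, AT3G52130 had 12.5, 8.80 and 5.10, and AT5G52160 had 46.3, 9.30 and 6.2. At stages 1-10, too, most of each sum was AT1G66850, with 13942, 20847 and 16039 in arf6 arf8, single-copy and wild-type buds. The order of genotypes differed among the rest. AMS had 609.5, 448.3 and 1291.5 there, and A9 had 1950, 3866 and 3558. AT3G52130 had 974.0, 1003.5 and 1530, and AT5G52160 had 57.1, 183.5 and 303.9. The part of tapetum content in the AT1G20120 and EXL5 values was not tested.

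The wild-type stem array also carried signal of this list. The 5 markers summed to 106.8 in arf6 arf8, 421.7 in single-copy and 1855 in wild-type stem. Most of each sum was AT1G66850, at 61.9, 338.2 and 1484. AT1G20120 in stem followed the same order of genotypes, at 43.9, 82.1 and 180.5, though signals below 100 carry little information on order. Mature pollen markers, with 6 of 14 measured, summed to 6630 in arf6 arf8, 2477 in single-copy and 2259 in wild-type buds of stages 1-10. The arf6 arf8 excess came from AT5G45880, AT3G07820 and AT5G07430. These had 3137, 2376 and 966.9 in arf6 arf8 buds, against 1343, 528.9 and 280.5 in wild-type. MGH3 had 95.9, 101.5 and 86.4 in arf6 arf8, single-copy and wild-type buds, and ANX1 and ANX2 were below 100 in each. The part of pollen content in the arf6 arf8 bud values was not tested. The sums were 25191, 22201 and 23968 in arf6 arf8, single-copy and wild-type flowers of stages 11-12. They came to 21646, 29418 and 28040 at stages 13-14, mostly from AT5G45880, AT5G07430 and AT3G07820. The dimmer markers were not alike there, in the same order of genotypes. MGH3 had 11.1, 180.0 and 159.3, ANX2 had 379.9, 778.4 and 678.3, and ANX1 had 142.7, 114.0 and 178.3. The part of pollen content in the AT5G45950 values was not tested.

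The genes with the most similar course over the 12 arrays were taken from 8035 single-gene probe sets. For AT1G20120 they were AT2G03850 (r = 0.981), AT2G41040 (r = 0.975), SCPL49, a serine carboxypeptidase-like gene (r = 0.974), and BGLU41, a beta-glucosidase gene (r = 0.964). For EXL5 they were AT1G06260, a papain-type protease gene (r = 0.986), AT1G06990, itself a GDSL lipase gene (r = 0.982), AT1G68780 (r = 0.982) and AT1G23650 (r = 0.979). These arrays share stage, so high values were easily reached, and no p is attached. The likeness did not extend to stages 11-12 in all of them: wild-type over arf6 arf8 was 6.25 for AT1G06260 and 4.46 for AT2G03850, but 1.34 for AT2G41040 and 1.46 for SCPL49.

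AT1G06990 shows the family relation most closely. Its signal was 491.7, 50.3, 5.50 and 15.9 in arf6 arf8, in the order of stages 1-10, 11-12, 13-14 and stem. Single-copy plants had 941.0, 149.4, 10.8 and 7.30, and wild-type had 1015, 294.8, 54.9 and 35.3. As with EXL5, wild-type exceeded both other genotypes at stages 11-12, here 3.44-fold over arf6 arf8 and 1.73-fold over single-copy flowers.

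The genes nearest to AT5G45950 were less alike: GT2, a trihelix transcription factor (r = 0.904), 4CL8, a 4-coumarate-CoA ligase-like gene (r = 0.901), AT1G27930 (r = 0.900) and AT5G48460 (r = 0.891). GT2 had 61.9 and 90.3 in arf6 arf8 at stages 11-12 and 13-14, against 386.4 and 470.6 in single-copy and 371.9 and 500 in wild-type flowers. Low older flowers of arf6 arf8 are the feature it shared with AT5G45950.

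EXL5 lies in a row of EXL genes in the gene order of the TAIR10.1 annotation, on chromosome 1. EXL4 and EXL6, its immediate neighbours, are not in the probe annotation used here. EXL1 (AT1G75880) followed another course: it had 2046, 2118, 397.5 and 3.40 in arf6 arf8, 1756, 5618, 469.7 and 6.00 in single-copy plants and 1228, 5129, 714.0 and 8.50 in wild-type. It was highest at stages 11-12, where EXL5 had already dropped, and was near 0 in stem. EXL2 (AT1G75890) was dimmer, with 169.3, 323.3 and 200.9 in arf6 arf8, single-copy and wild-type buds and 31.7, 24.2 and 91.2 at stages 13-14.

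EXL3 (AT1G75900) was broad. It had 1443, 1029, 794.6 and 2604 in arf6 arf8, 1918, 1962, 1757 and 2949 in single-copy plants and 1336, 1466, 2677 and 3014 in wild-type. Stem was its highest tissue in every genotype. ATA27 (AT1G75940), a beta-glucosidase gene first described from anthers that follows EXL6 in the gene order, was named after its values were seen. At stages 11-12 it had 118.1 in arf6 arf8, 433.8 in single-copy and 2878 in wild-type flowers, a wild-type signal 17.4-fold above arf6 arf8 and 6.05-fold above single-copy. Its signal at stages 1-10 was 7888, 11508 and 10041, so wild-type was 1.27-fold above arf6 arf8 in young buds.

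**Figure D2:**
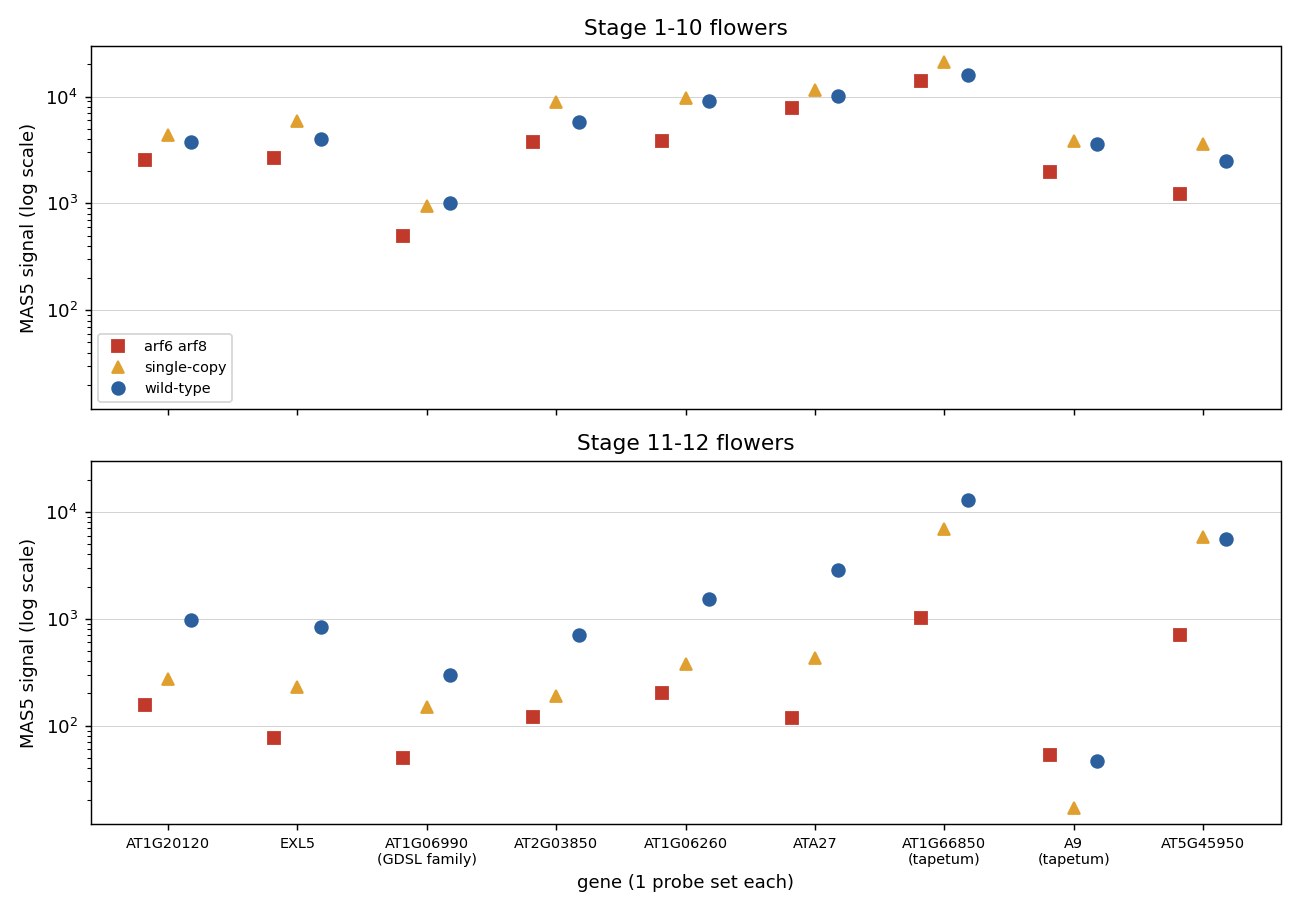
Signals on a log scale for AT1G20120, EXL5, genes of like course, tapetum genes and AT5G45950 at stages 1-10 (upper panel) and 11-12 (lower panel), with 1 array for each of arf6 arf8, single-copy and wild-type plants. Genotypes lie closer together in the upper panel, and in the lower one EXL5 has 75.9, 227.9 and 843.5 in arf6 arf8, single-copy and wild-type flowers, while A9 is low in all.

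AT5G45950 also has GDSL neighbours, on chromosome 5. AT5G45960, the next gene, had 2068, 1558, 262.3 and 666.9 in arf6 arf8, 2345, 3608, 482.6 and 677.8 in single-copy plants and 1169, 2194, 616.0 and 386.4 in wild-type. It was low at stages 13-14, where AT5G45950 peaked in single-copy and wild-type flowers. AT5G45910, 4 genes before AT5G45950, had 981.5 in arf6 arf8, 549.9 in single-copy and 323.5 in wild-type flowers of stages 13-14. Its order of genotypes was the reverse of that of AT5G45950.

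Around the 3 genes stands the wider family, listed from general knowledge as 112 loci; of these, 71 others had a probe set of their own and 59 passed the signal filter. In older flowers 5 of the 59 rose and 9 fell in arf6 arf8 relative to wild-type, and 45 did not pass (limma). As shares these were 8.47% higher and 15.3% lower, beside 2.86% and 3.11% of all probe sets. The median difference was -0.28 for the family and 0.05 for all probe sets. Between single-copy and wild-type older flowers 0 of 59 passed by limma, and 5 had an unadjusted p below 0.05.

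RXF26 (AT1G58430) fell most, with a log2 difference of -3.93 (SE 0.591, limma adjusted p = 0.00944). Its signal was 138.1 and 61.6 in arf6 arf8 at stages 11-12 and 13-14, against 1812 and 269.9 in single-copy and 4647 and 988.0 in wild-type flowers. Like the bud lipases it started high, at 3836, 5379 and 5169 at stages 1-10. At stages 13-14 wild-type was still far above arf6 arf8, whereas the wild-type over arf6 arf8 ratios of AT1G20120 and EXL5 there were 1.19 and 1.36. EXL5 was below 100 in every genotype at those stages, so its ratio carries little information.

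AT1G54020 fell by 2.88 (SE 0.350, limma adjusted p = 0.00387), with 610.4 and 153.1 in arf6 arf8 older flowers, against 4477 and 1439 in single-copy and 3284 and 2129 in wild-type. AT4G18970 fell by 2.23 (SE 0.249, adjusted p = 0.00273), with 644.6 and 377.2 in arf6 arf8, against 1756 and 1285 in single-copy and 2370 and 2643 in wild-type. In these as in AT5G45950, both arf6 arf8 values were below all single-copy and wild-type values of older flowers. The other falls were AT3G11210 (-1.52), AT1G29670 (-1.35), AT1G06990 (-1.35), AT2G19010 (-1.26), AT3G16370 (-1.19) and AT3G14220 (-1.19). AT1G06990 is below the brightness set for naming and was named for its likeness to EXL5.

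Of the 5 that rose, 4 bear neighbouring locus numbers: AT1G28570 (1.75), AT1G28580 (1.32), AT1G28600 (1.29) and AT1G28610 (1.25, named after its value was seen). AT1G28570 had 1494 and 2223 in arf6 arf8 older flowers, against 570.0 and 737.4 in single-copy and 397.4 and 642.6 in wild-type. AT1G28580 had 2945 and 4658 in arf6 arf8, against 1852 and 1999 in single-copy and 1215 and 1745 in wild-type. Both were higher in arf6 arf8 than in the other genotypes at each older stage. Whether probes of such neighbours read each other's transcripts was not tested. AT5G45910 rose by 1.38 (SE 0.284, limma adjusted p = 0.0285).

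These calls rest on few arrays, and with flower arrays alone 4 family genes passed, where 1.40% of all probe sets did, against 5.96% with all arrays. AT4G18970 passed in all 12 fits that each left out 1 array, and the other 13 were lost in at least 1 of them. RXF26 was lost without either wild-type older flower array or the arf6 arf8 array of stages 11-12. AT1G54020 was lost without the arf6 arf8 array of stages 13-14.

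**Figure D3:**
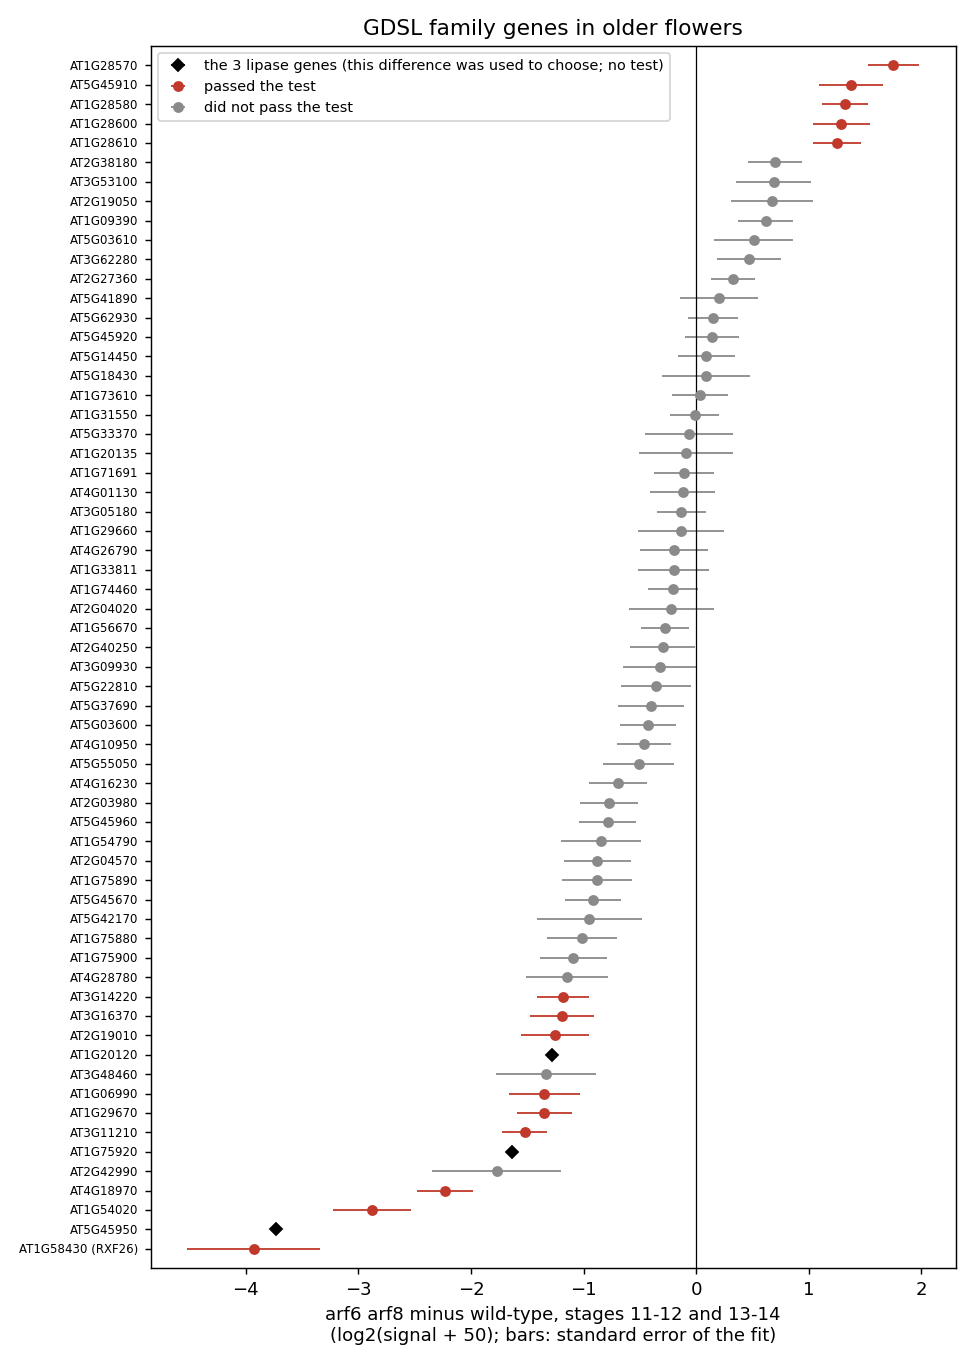
Difference of arf6 arf8 from wild-type in older flowers on the log2(signal + 50) scale for 59 family genes, with bars for the standard error of the fit, and for AT1G20120, EXL5 and AT5G45950, drawn without bars. The points of 5 genes that rose and 9 that fell are coloured, and AT5G45950 at -3.73 lies beside RXF26 at -3.93.

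Within single tissues, with no test, family genes past 2-fold with a signal of 200 or more were counted in arf6 arf8 against wild-type. At stages 1-10, 2 of 59 were higher and 0 lower, beside 1.07% and 0.986% of all probe sets. At stages 11-12, 5 were higher and 10 lower, beside 3.57% and 3.94%. At stages 13-14, 6 were higher and 14 lower, beside 5.33% and 5.51%. In stem 3 were higher and 4 lower, beside 2.53% and 1.62%. The lower genes were thus more frequent in older flowers than in buds, as were lower probe sets in all.

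Family genes also differed between stages over all genotypes. From stages 1-10 to 13-14, 8 of 59 rose and 18 fell, beside 9.18% and 9.52% of all probe sets (limma), and the family median was -0.36 beside -0.02 for all. RXF26 (-3.85), AT2G42990 (-3.80), AT1G06990 (-3.55) and AT2G04570 (-3.46) fell most, followed by CUS2 (AT5G33370, -2.72), a cutin synthase gene, AT3G48460 (-2.02), AT5G45960 (-1.93) and AT3G05180 (-1.77). EXL1 and EXL2 also fell (-1.59 and -1.53). Rises were AT2G03980 (2.70), AT5G45910 (2.30), AT1G29660 (1.94), AT1G73610 (1.81), AT2G19050 (1.73), AT1G28580 (1.13), AT1G29670 (1.07) and AT1G28570 (1.06).

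At stages 11-12 minus 1-10, 7 rose and 3 fell, beside 4.87% and 3.77% of all probe sets. AT5G42170 rose by 3.05, AT2G19010 and AT1G20135 by 2.19 each and EXL1 by 1.24, while AT1G06990 fell by 2.12. AT1G20135 lies 3 genes after AT1G20120 and had 439.1, 579.7 and 776.1 in arf6 arf8, single-copy and wild-type flowers of stages 11-12, where AT1G20120 was 156.7, 275.1 and 975.4. In stem minus stages 1-10, 7 rose and 18 fell, beside 6.05% and 7.52%, and EXL1 fell by 4.92. Without the single-copy arrays of stages 1-10 and 13-14, 17 family genes passed between stages 13-14 and 1-10 and 5 between stages 11-12 and 1-10. Of all probe sets 12.3% and 6.12% passed there, against 18.7% and 8.64% with all arrays. Without all 4 single-copy arrays 12 family genes passed between stem and stages 1-10, and 5.14% of all probe sets did, against 13.6% with all arrays.

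AT5G45950 was lower at stages 13-14 than at stages 1-10 in arf6 arf8 and higher in wild-type, and so, by any amount, were 9 of 50 other family genes, beside 12.7% of all probe sets of the same brightness. Of these 50, all with a signal of 200 or more in some array, 8 were at least 2-fold higher and 22 lower at stages 13-14 than at stages 1-10 in arf6 arf8, beside 9.04% and 8.97% of all such probe sets. In wild-type 10 were higher and 9 lower, beside 9.26% and 6.42%. Only AT5G42170 was at least 2-fold lower in arf6 arf8 and at least 2-fold higher in wild-type, beside 0.335% of such probe sets, and 0 were the reverse. AT5G42170 had 535.1, 1922 and 117.9 in arf6 arf8 at the 3 flower stages, against 109.5, 2858 and 375.1 in wild-type. Its peak at stages 11-12 in both is a feature AT5G45950 lacked.

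**Figure D4:**
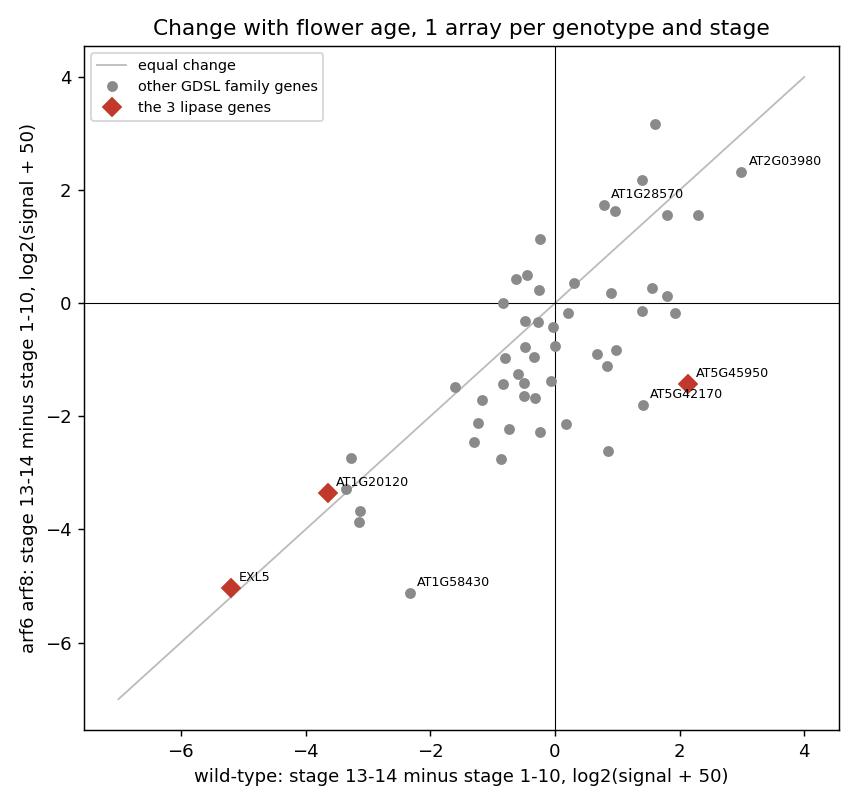
Change from stages 1-10 to 13-14 on the log2(signal + 50) scale, with wild-type on the horizontal and arf6 arf8 on the vertical axis, 1 point per GDSL family gene and 1 array behind each stage and genotype. AT1G20120 and EXL5 lie near the line of equal change, and AT5G45950 lies at 2.14 in wild-type and -1.43 in arf6 arf8.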

How the data were processed

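Transcripts of 12 samples were measured on 1-colour arrays. Per the submitters' processing notes the authors used MAS5 (version not stated), and the deposited values are linear signal intensities, 1 per probe set and array. Values were rescaled to a trimmed mean of 500 (2% off each end), which moved log2 values by at most 0.000128, and analysed as log2(signal + 50). Of 22810 probe sets, 64 controls were left out, and 17642 with a signal of 100 in at least 1 array were kept. Gene names come from the supplied probe table (14016 probe sets, 13436 with 1 locus).

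Models were fitted in limma 3.58.1 (R 4.3.3; two-sided moderated tests with an intensity trend, Benjamini-Hochberg over all kept probe sets, threshold 0.05) with genotype by phase plus tissue, and for stages with genotype plus tissue. The code was tested on simulated data. The planned stage, stem and single-copy tests of AT5G45950 are given as values, since older flower arrays that helped to choose it entered them. No genotype and tissue has a second array: residual spread holds both array error and genotype effects that vary by tissue, and p-values measure only this spread. The number of arrays limits the precision.

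The 3 genes and all lists were chosen with earlier results of these data known. The family list (112 loci) and marker lists come from general knowledge, since the supplied annotation has no descriptions. The text names up to 8 rises and 8 falls per tested family comparison whose brighter group averaged a signal of at least 200, EXL genes, and the 4 most similar courses per gene. Other filters, pseudocounts, quantile normalization, array subsets and leaving out each array were tried.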

Additional observations from a re-analysis of the deposited data

Results flagged for a closer look

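AT5G45950 moved one way with flower age in arf6 arf8 and the opposite way in both other genotypes. From stages 1-10 to 11-12 its log2(signal + 50) differed by -0.76 in arf6 arf8, 0.68 in single-copy plants and 1.14 in wild-type. From stages 1-10 to 13-14 the difference was -1.43 in arf6 arf8, 1.46 in single-copy plants and 2.14 in wild-type. Each value compares 1 array with 1 array, and the difference between genotypes was not tested. The gene was chosen for its low signal in older arf6 arf8 flowers, which enters each of these values.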

How the results depend on the processing

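Over 21 alternatives, 283 of 305 recomputed values kept their direction and call, or for counts stayed within 1.5 times. This total includes differences of the 3 genes and the family comparisons with 0 calls. Those were single-copy with wild-type in older flowers and arf6 arf8 with wild-type in younger tissue. The total therefore says little about how firm the family calls are. The 14 family calls of arf6 arf8 against wild-type in older flowers became 4 with flower arrays alone (1.40% of all probe sets, against 5.96%). Without the 4 single-copy arrays the stage 13-14, stage 11-12 and stem counts of 26, 10 and 25 became 15, 2 and 12, and without the single-copy arrays of stages 1-10 and 13-14 the first pair became 17 and 5. Calls over all probe sets dropped too, to 9.43%, 3.13% and 5.14%, and to 12.3% and 6.12%, against 18.7%, 8.64% and 13.6%. The cause was not tested; fewer arrays entered each fit. Leaving out 1 array at a time gave 2 to 20 calls in older flowers, where 0.907% and 13.2% of all probe sets passed (the higher without single-copy stages 11-12): 2 without wild-type stages 13-14, 3 without arf6 arf8 stages 13-14, 6 without arf6 arf8 stages 11-12 and 7 without wild-type stages 11-12. In the fits with 2, 3, 6 and 7 calls, which leave 1 older flower array in a genotype, fewer of all probe sets passed too. For stages 11-12, leaving out 1 array gave 5 to 10 calls, with 5 and 6 without the single-copy arrays of stages 1-10 and 11-12. Of all probe sets 5.49% and 5.08% passed in the latter fits, against 8.64% with all arrays. The 10 calls came without single-copy stages 13-14, where 12.4% passed. For stem, leaving out 1 array gave 14 to 28 calls, with 14 without the single-copy array of stages 1-10 or of stem. There 6.90% and 6.38% of all probe sets passed, against 13.6% with all arrays. The 28 calls came without single-copy stages 13-14 (21.9% of all probe sets) or arf6 arf8 stages 13-14 (14.3%). For AT5G45950, leaving out 1 array gave -0.075 to 0.88 for stages 11-12 minus 1-10, 0.21 to 1.63 for stages 13-14 minus 1-10, -0.58 to 0.55 for stem minus stages 1-10, and -0.51 to 0.43 for single-copy minus wild-type in older flowers. The same single-copy difference of AT1G20120 ranged from -1.76 to 0.081. No paired analysis was possible because the labels carry no replicate numbers and each genotype and tissue has 1 array. Signals below 100, such as EXL5 at stages 13-14, carry little information on order.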

Other observations

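The tissue with the highest signal was counted for 50 other family genes that reached 200 in some array, with no test. In arf6 arf8 it was stages 1-10 for 22 genes, stages 11-12 for 7, stages 13-14 for 12 and stem for 9. In single-copy plants the counts were 14, 17, 8 and 11, and in wild-type 12, 16, 12 and 10. The same count was not made over all probe sets, so these counts cannot be read as particular to the family. SWEET9, a nectary sugar transporter gene and the 1 measured of 7 listed petal, nectary and carpel genes, had 46.7 and 83.9 in arf6 arf8 flowers of stages 11-12 and 13-14, against 1350 and 5201 in single-copy and 1310 and 5520 in wild-type flowers. Its part in the AT5G45950 values was not tested.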
